A study of Homo sapiens with 9 samples.

Results

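Synaptic vesicle and exocytosis genes encode the machinery with which a neuron loads, docks, fuses and recovers the vesicles that hold its transmitter. The 43 genes described here were taken by gene symbol, and each matched 1 of the 34961 rows of the deposited gene table. Their RNA levels were followed on 3 days while WA09 cells, an established line of human embryonic stem cells (H9), were differentiated towards serotonin neurons. The Day0 group consisted of undifferentiated stem cells, the Day21 group was labelled as neural progenitor cells and the Day42 group as TPH2+ serotonin neurons, with 3 libraries on each day. TPH2 is the neuronal enzyme that starts serotonin synthesis. All 9 libraries came from this single line and carried the TPH2-EGFP knock-in, Day0 included, and the labels give all of them the same serotonin neuron differentiation as treatment. The labels give neither the number of clones nor how the TPH2+ cells of Day42 were obtained. They call the libraries biological replicates without naming separate differentiations, so the p-values below speak only for the spread among these libraries, part of which may be technical.

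Transmitter release rests on a small set of interacting proteins. SNAP25 and syntaxin 1 on the plasma membrane and synaptobrevin (VAMP2) on the vesicle form the SNARE complex that drives fusion, complexins hold and release it, and NSF with its SNAP adaptors takes it apart afterwards. Synaptotagmin 1 is the calcium sensor of fast release, RAB3 proteins and the RIM, UNC13 and CADPS proteins dock and prime vesicles at the active zone, and dynamin, synaptojanin, amphiphysin and AP180 (SNAP91) serve the recovery of vesicle membrane. Serotonin neurons use SNARE-based exocytosis too.

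The libraries held between 58526466 and 69658328 counts each. The 3 Day42 libraries differed from each other more than those of the other days. The correlation of log2 CPM (counts scaled to library size) across genes was 0.811 between Day42 replicates 1 and 2 and 0.668 and 0.666 between either of them and replicate 3, against 0.947 to 0.954 between Day21 libraries and 0.92 to 0.941 between Day0 libraries. Day42 replicate 3 held counts for 10797 genes, against 16077 and 17101 in replicates 1 and 2. Mitochondrial genes took 2.65% to 2.94% of the counts on Day42, against 7.23% to 10.6% on Day21 and 6.13% to 10.5% on Day0. This share moved with every Day42 comparison, and its part in the results was not tested. Summed over fixed marker lists, pluripotency markers lay at 323 to 585 FPKM (fragments scaled to transcript length and library size, as the authors computed them) at Day0, 8.59 to 14.5 at Day21 and 0.0244 to 0.0328 at Day42. Pan-neuronal markers lay at 12.5 to 28.5, 188 to 285 and 1600 to 1910 FPKM on the same days. Neural progenitor markers lay at 67.8 to 93.4 FPKM on Day42, against 222 to 269 on Day21, and reached 90.4 FPKM on Day0. Most of the Day42 progenitor sum came from VIM alone, at 58.1, 66.6 and 93.4 FPKM. HES5 was listed at 0 in all Day42 libraries, and FABP7 lay at 6.5, 9.04 and 0 FPKM. The progenitor sum therefore does not measure how many progenitors remained on Day42. Markers of dividing cells lay at 0.0954 to 8.11 FPKM on Day42, against 239 to 281 on Day21. The 6 astrocyte markers summed to 4.23 to 17.7 FPKM on Day42, against 9.64 to 10.8 on Day21. Of these GFAP, AQP4 and ALDH1L1 were listed at 0 in all Day42 libraries, while GJA1, a gap junction gene that other cells also express, lay at 15.2, 3.54 and 4.58 FPKM. The 8 serotonin neuron markers summed to 592 to 650 FPKM on Day42, against 1.79 to 1.98 on Day21, but SLC6A4, the serotonin transporter, was listed at 0 in all Day42 libraries. The sum of 8 mesenchyme markers was 108 to 114 FPKM on Day21 and 18.3 to 53.2 on Day42, against 1.15 to 1.97 on Day0. The 4 measured endocrine markers, 2 of which are the granins that many neurons also make, summed to 239 to 290 FPKM on Day42, against 3.91 to 6.65 on Day21. The part of these other cell types in the results below was not tested. In bulk RNA, fewer cells of a type and less RNA per cell cannot be told apart.

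Together the 43 genes made up 30.9 to 65.7 FPKM at Day0, 52.4 to 70.3 FPKM at Day21 and 700 to 760 FPKM at Day42. The sums of Day21 lay within or close to those of Day0, and those of Day42 lay far above both. The make-up of the sum differed between days. SNAP25, VAMP2 and SYT1 together gave 9.22% to 11.8% of it at Day0, 37.9% to 38.9% at Day21 and 60.9% to 74.7% at Day42. The highest mean level on Day0 belonged to SYNGR3, at 14.0 FPKM with libraries between 1.39 and 25.3. VAMP2 led on Day21, at 13.9 ± 0.48 FPKM (SD, n = 3), ahead of SYT1, SYT11 and SYNGR1. The ranges of SYT1, SYT11 and SYNGR1 overlapped. On Day42 the order was SNAP25, VAMP2, SYT1 and SYT11, at means of 259, 136, 82.8 and 39.1 FPKM, and the libraries of these 4 genes did not overlap with one another.

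**Figure D1:**
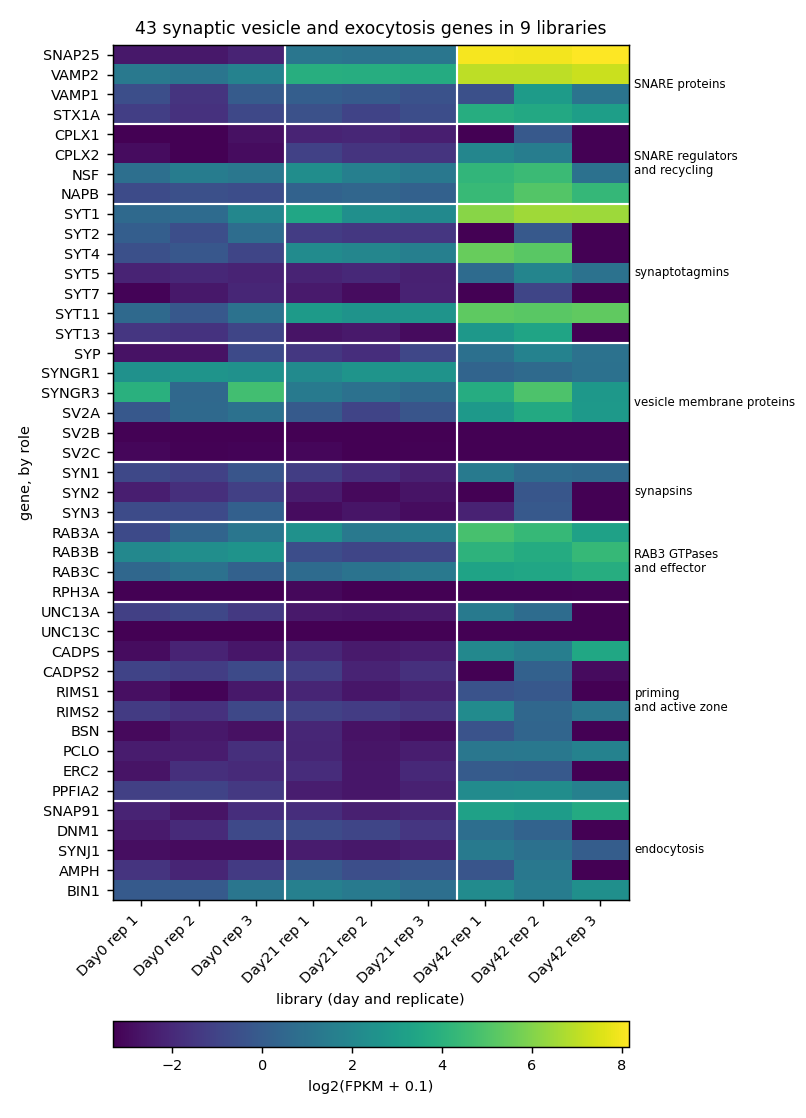
FPKM of the 43 genes in each of the 9 libraries, shown as log2(FPKM + 0.1) by shade, with genes grouped by role down the page and libraries ordered from Day0 to Day42. SNAP25, VAMP2, SYT1 and SYT11 stand at the high end of the scale in all 3 Day42 libraries, and 17 genes are at 0 in Day42 replicate 3.

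Each pair of days was compared with edgeR's quasi-likelihood test on counts, and a gene was called when its Benjamini-Hochberg adjusted p over all 20156 genes tested was under 0.05 and its log2 fold change at least 1 in size. Of the 43 genes, 39 passed the filter on low counts. SV2B, SV2C, RPH3A and UNC13C did not, and none of them exceeded 16 counts in any library. A library with no counts for a gene still allows up to 12 counts, for counting error only, and 12 counts are 0.227, 0.203 and 0.146 CPM on average on Day0, Day21 and Day42.

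By GENCODE release 29, 16 of the 43 genes overlap another gene on the same strand and 18 more one on the other strand alone. VAMP2, SYT1, NAPB, PPFIA2 and SYNGR1 are among the 16 and SNAP25 and RAB3B among the 18. Whether the authors counted by strand is not given here, so counts of these genes may hold reads of the overlapping gene.

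By Day21 the vesicle genes had moved in both directions. SNAP25, VAMP2, SYT1, SYT4, SYT11, CPLX2 and AMPH rose relative to Day0, while RAB3B, SYN3, UNC13A, SYT2, SYT13, PPFIA2 and SYNGR3 fell. These are 7 higher and 7 lower of 39 tested, beside 12.9% higher and 12.0% lower among all genes tested, so the shares were not far from those of all genes. The median log2 fold change of the 39 was 0.51, against 0.03 over all genes tested. All libraries of Day21 lay above all libraries of Day0 for 12 genes, beside 24.7% of all genes, and below them for 10 genes, beside 22.2%. When the Day42 libraries were added to the fit, 3 genes were called higher (SNAP25, VAMP2 and SYT11) beside 1.32% of all genes and 1 lower (RAB3B) beside 1.18%. Leaving out 1 library at a time gave between 5 and 12 genes higher and between 6 and 8 lower, and the largest gain came without Day0 replicate 3. Over all genes tested, the same fits called between 1798 and 3110 higher and between 1920 and 2512 lower.

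Between Day21 and Day42 the calls among vesicle genes ran upwards with 1 exception when all libraries were used. SNAP25, SNAP91, CADPS, PPFIA2 and RAB3B had the largest called rises on Day42 relative to Day21, and SYNGR1 alone was called lower. In all, 17 of the 39 tested genes were called higher and 1 lower, while 4.9% of all genes were called higher and 16.6% lower. The median log2 fold change was 2.33 for the vesicle genes and -0.54 over all genes tested. All Day42 libraries lay above all Day21 libraries for 20 of the 39 genes, beside 11.1% of all genes, and below them for SYNGR1 only, beside 34.7%. The counts depended on which library was left out. Without Day21 replicates 1, 2 and 3, 8, 4 and 4 genes were called higher and none lower, and without Day42 replicates 1, 2 and 3, 15, 16 and 27 were higher and 1, 5 and 1 lower. Over all 20156 genes tested, 211, 110 and 118 were higher and 367, 122 and 121 lower without these Day21 libraries. Without these Day42 libraries 1007, 1019 and 2236 were higher and 3861, 4529 and 4542 lower. With all libraries 988 were higher and 3341 lower. The 5 lower without Day42 replicate 2, beside 22.5% of all genes, were SYNGR1 and CPLX1, SYN2, SYT2 and SYT7, and the last 4 of these had no counts in the other two Day42 libraries. The 16 higher in that setting stood beside 5.06% of all genes. SNAP25, VAMP2 and RAB3B were called higher whichever library was left out. With all 9 libraries in 1 fit, 17 were higher and 1 lower, beside 6.52% and 19.7% of all genes.

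Over the whole course, Day42 against Day0, 16 genes were called higher and SYNGR1 was called lower, beside 5.52% higher and 17.5% lower among all genes tested. The median log2 fold change was 2.85 for the vesicle genes and -0.57 over all genes. All Day42 libraries lay above all Day0 libraries for 19 genes, beside 11.4% of all genes. They lay below them for SYN3, SYNGR1 and SYT2, beside 34.1%. Without Day0 replicates 1, 2 and 3, 5, 6 and 7 genes were called higher, and without Day42 replicates 1, 2 and 3, 13, 15 and 23. Over all genes tested, 180, 255 and 312 were higher without these Day0 libraries, against 1112 with all libraries. Without these Day42 libraries 988, 1026 and 2354 were higher. No vesicle gene was called lower without any 1 Day0 library, beside 248, 319 and 503 of all genes. Without Day42 replicate 2 SYN2 and SYT2 were called lower in addition to SYNGR1. In that setting 5.09% of all genes were called higher and 21.1% lower. SNAP25, VAMP2, NAPB, SYT1 and SYT11 were called whichever library was left out. With all 9 libraries in 1 fit, 17 were higher and 1 lower, beside 8.82% and 23.4% of all genes. This comparison shares its libraries with the other 2, so it is no separate evidence.

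By their calls, the SNARE proteins themselves took 3 courses. SNAP25 (ENSG00000132639, on chromosome 20 from 10218830 to 10307418, GRCh38) had 16, 20 and 32 counts in the Day0 libraries, 620, 553 and 595 in the Day21 libraries and 58758, 58690 and 74629 in the Day42 libraries. Its FPKM were 0.0672, 0.065 and 0.117 at Day0, 2.16, 1.98 and 2.20 at Day21 and 251, 243 and 283 at Day42. Libraries of different days were far apart, and those of 1 day lay close together. SNAP25 rose in both steps, by 4.57 ± 0.34 (SE) on the log2 scale on Day21 relative to Day0 (edgeR adjusted p = 0.000164) and by 6.29 ± 0.21 on Day42 relative to Day21 (edgeR adjusted p = 0.00057). Both calls held under every alternative tried.

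VAMP2, the vesicle SNARE, had 2.40, 2.10 and 3.25 FPKM at Day0, 14.3, 14.1 and 13.4 at Day21 and 127, 129 and 152 at Day42. It too rose in both steps with no overlap between days, by 2.39 ± 0.22 on Day21 relative to Day0 (edgeR adjusted p = 0.00034) and by 2.64 ± 0.20 on Day42 relative to Day21 (edgeR adjusted p = 0.0032), under every alternative tried. STX1A, the plasma membrane syntaxin, rose in the second step. Its levels were 0.338, 0.209 and 0.453 FPKM at Day0, 0.623, 0.391 and 0.560 at Day21 and 14.0, 11.9 and 8.65 at Day42. The libraries of Day0 and Day21 overlapped, and those of Day42 lay above both. The log2 fold change of STX1A was 3.78 ± 0.55 on Day42 relative to Day21 (edgeR adjusted p = 0.0165) and 0.60 ± 0.40 on Day21 relative to Day0 (edgeR adjusted p = 0.315). The Day42 call was lost without any 1 of the Day21 libraries, with adjusted p up to 0.089. VAMP1, the second vesicle synaptobrevin, was called in no comparison, and its Day42 libraries spread from 0.591 to 7.86 FPKM.

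**Figure D2:**
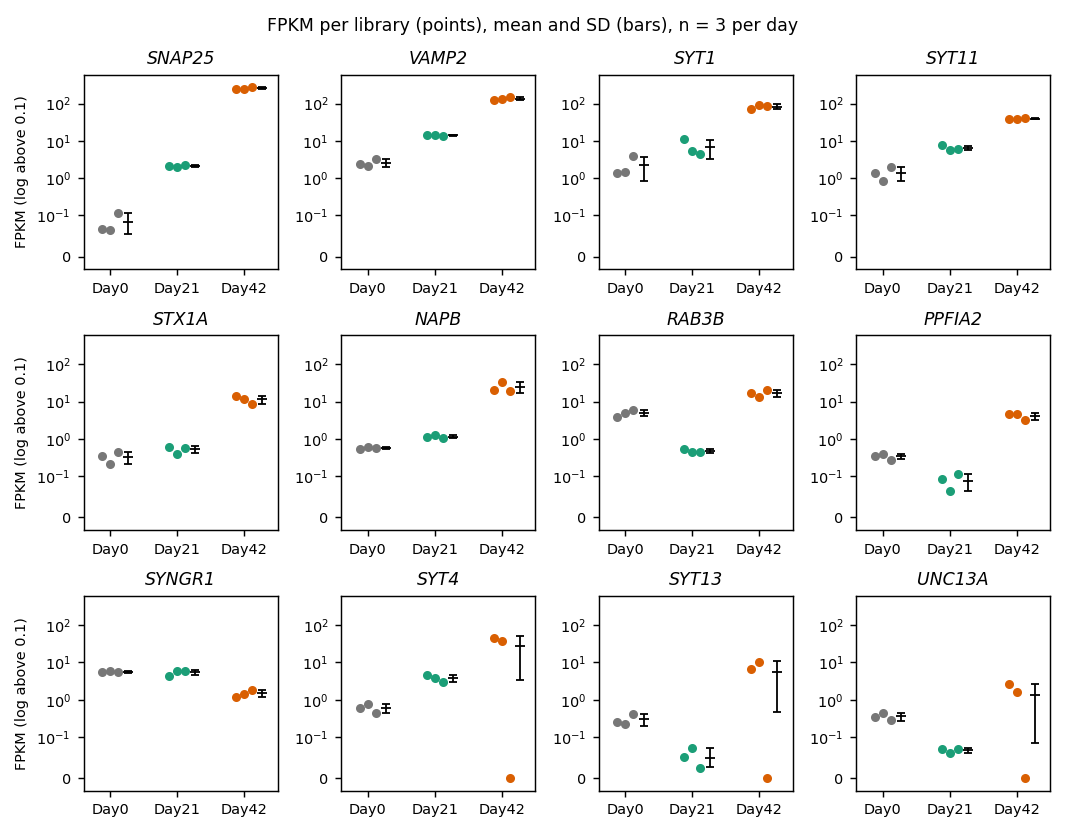
FPKM of 12 genes in every library (points) on Day0, Day21 and Day42, with the mean and SD of the 3 libraries as bars, on an axis that is logarithmic above 0.1 FPKM and reaches 0. SNAP25 and VAMP2 step up on Day21 and again on Day42, and STX1A is highest on Day42, with Day0 and Day21 overlapping. RAB3B is lower on Day21 than on Day0 and highest on Day42, SYNGR1 is lowest on Day42, and SYT4 is at 0 in 1 Day42 library.

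Among the SNARE regulators, NAPB, the brain form of the SNAP adaptors that recruit NSF, had 0.524, 0.596 and 0.559 FPKM at Day0, 1.10, 1.28 and 1.09 at Day21 and 20.8, 33.9 and 19.6 at Day42. No 2 days overlapped. It rose by 3.74 ± 0.38 on the log2 scale on Day42 relative to Day21 (edgeR adjusted p = 0.00606), a call lost without Day21 replicate 3 (adjusted p = 0.0535). Its Day21 change relative to Day0 was just under the fold threshold, at 0.997 on the log2 scale (edgeR adjusted p = 0.0292). Voom and the fit with a filter on FPKM called it. CPLX2, a complexin, had 16, 0 and 17 counts at Day0, 225, 132 and 130 at Day21 and 1860, 1412 and 0 at Day42. It rose by 3.66 ± 1.02 on Day21 relative to Day0 (edgeR adjusted p = 0.0316), and the call was lost without Day0 replicate 1 or any 1 Day21 library, with adjusted p up to 0.085. CPLX1 stayed below 1 FPKM in every library, and it was at 0 in 2 of the 3 Day42 libraries. NSF, the ATPase that disassembles SNARE complexes, was at 18.6, 22.3 and 1.86 FPKM on Day42, against 4.88, 2.99 and 2.34 on Day21. Its first 2 Day42 libraries were above and the last below all Day21 libraries, and edgeR called it in neither step with all libraries. Voom called its late rise.

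The synaptotagmins divided into rising, falling and split genes. SYT1, the calcium sensor of fast release, had 1.40, 1.49 and 3.85 FPKM at Day0, 10.9, 5.19 and 4.30 at Day21 and 69.8, 91.1 and 87.4 at Day42. No 2 days overlapped, although the highest Day0 library came near the lowest Day21 library. SYT1 rose by 1.54 ± 0.43 on Day21 relative to Day0 (edgeR adjusted p = 0.0311) and by 3.01 ± 0.35 on Day42 relative to Day21 (edgeR adjusted p = 0.00865). The first call was lost without Day0 replicate 1 or 2 or Day21 replicate 1 or 2, with adjusted p up to 0.106, and the second without Day21 replicate 2 (adjusted p = 0.0633). SYT11, a family member that does not act as a calcium sensor, had 1.40, 0.805 and 1.93 FPKM at Day0, 7.58, 5.79 and 6.01 at Day21 and 38.9, 37.5 and 40.7 at Day42. Its rises of 2.18 ± 0.31 on Day21 relative to Day0 (edgeR adjusted p = 0.00209) and 1.96 ± 0.22 on Day42 relative to Day21 (edgeR adjusted p = 0.00799) were close in size. The second was lost without Day21 replicate 2 or 3, with adjusted p up to 0.0723.

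SYT4, a synaptotagmin of dense-core and other secretory vesicles, had 0.600, 0.759 and 0.430 FPKM at Day0, 4.49, 3.72 and 2.98 at Day21 and 44.8, 36.7 and 0 at Day42. It rose by 2.55 ± 0.32 on Day21 relative to Day0 (edgeR adjusted p = 0.00131). On Day42 the 3 libraries did not share a direction, with 13440 and 11374 counts in replicates 1 and 2 and none in replicate 3. No call was made in the second step with all 3 libraries (edgeR adjusted p = 0.579). SYT13 had the same split, at 6.80, 10.2 and 0 FPKM on Day42, against 0.0514, 0.0722 and 0.026 on Day21. It fell by 2.58 on the log2 scale (SE 0.55) on Day21 relative to Day0, where it had 0.252, 0.225 and 0.424 FPKM (edgeR adjusted p = 0.0112). SYT5 rose on Day42, at 1.50, 3.57 and 1.9 FPKM, against 0.118, 0.149 and 0.107 on Day21. Its log2 fold change was 3.51 ± 0.82 (edgeR adjusted p = 0.0299), and the call was lost without any 1 Day21 library, with adjusted p up to 0.148. SYT2, a fast calcium sensor of hindbrain and spinal synapses, was at 0.310, 0.259 and 0.251 FPKM on Day21, against 0.968, 0.580 and 1.60 on Day0, and fell by 1.97 on the log2 scale (SE 0.37, edgeR adjusted p = 0.00693). SYT2 and SYT7 were both at 0 in 2 Day42 libraries and above 0 in replicate 2 alone.

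Of the vesicle membrane proteins, SV2A, the vesicle glycoprotein that binds the drug levetiracetam, rose in the second step. It had 0.805, 1.42 and 1.84 FPKM at Day0, 0.860, 0.410 and 0.705 at Day21 and 7.12, 12.5 and 7.37 at Day42. All Day42 libraries lay above the others, and the log2 fold change on Day42 relative to Day21 was 3.14 ± 0.57 (edgeR adjusted p = 0.0224). The call was lost without any 1 Day21 library, with adjusted p up to 0.089. Its relatives SV2B and SV2C were at or near 0 on every day, so SV2A was the only form of SV2 above 15 counts in any library. Synaptophysin (SYP), often used as a synapse marker, reached 1.81, 3.28 and 1.93 FPKM on Day42, against 0.263, 0.187 and 0.443 on Day21. The days did not overlap, but the change missed the threshold (edgeR adjusted p = 0.0972). DESeq2, both limma fits on FPKM and voom called it.

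The 2 synaptogyrins were called in opposite directions in the second step. SYNGR1 had 5.46, 5.96 and 5.49 FPKM at Day0, 4.37, 6.08 and 5.76 at Day21 and 1.20, 1.46 and 1.84 at Day42. Day0 and Day21 overlapped, and Day42 lay below both. SYNGR1 fell by 2.51 on the log2 scale (SE 0.47) on Day42 relative to Day21 (edgeR adjusted p = 0.0224) and was the only vesicle gene called lower in that step with all libraries, against 5 without Day42 replicate 2. The call was lost without any 1 Day21 library, with adjusted p up to 0.0992. SYNGR3 had 15.4, 1.39 and 25.3 FPKM at Day0, 2.48, 1.87 and 1.40 at Day21 and 13.5, 30.5 and 6.88 at Day42. The Day0 libraries spread more than the days differed, with replicate 2 as low as the lowest Day21 library. SYNGR3 was called lower on Day21 relative to Day0 (log2 fold change -2.91 ± 0.84, edgeR adjusted p = 0.0352), a call lost without any 1 library other than Day0 replicate 2, with adjusted p up to 0.11. It was called higher on Day42 relative to Day21 (2.48 ± 0.66, edgeR adjusted p = 0.0444), a call lost without any 1 Day21 library or without Day42 replicate 1 or 2, with adjusted p up to 0.167.

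The synapsins, which tether vesicles in the reserve pool, stayed low on every day. SYN1 had 0.455, 0.359 and 0.707 FPKM at Day0, 0.330, 0.184 and 0.107 at Day21 and 2.51, 1.55 and 1.44 at Day42. The Day42 libraries lay above all others, yet neither step passed the test for SYN1 (edgeR adjusted p = 0.0726 on Day21 relative to Day0 and 0.0937 on Day42 relative to Day21). Its late rise was called with all 9 libraries in 1 fit, DESeq2, both limma fits on FPKM and voom. Its early fall was called with DESeq2 and voom. SYN3 had 380, 405 and 851 counts at Day0, 27, 49 and 26 at Day21 and 83, 600 and 0 at Day42. It fell by 4.08 on the log2 scale (SE 0.47) on Day21 relative to Day0 (edgeR adjusted p = 0.00086). SYN2 was under 1 FPKM in all 9 libraries and at 0 in 2 of the Day42 libraries.

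RAB3B had the largest called difference between the steps. RAB3B is a vesicle GTPase also found in endocrine cells, encoded on chromosome 1 from 51907956 to 51990700. It had 3.98, 4.97 and 5.92 FPKM at Day0, 0.551, 0.432 and 0.451 at Day21 and 17.1, 13.1 and 20.8 at Day42. No 2 days overlapped, and the Day21 libraries were the lowest. RAB3B fell by 3.42 on the log2 scale (SE 0.20) on Day21 relative to Day0 (edgeR adjusted p = 0.000105). It rose by 4.52 ± 0.33 on Day42 relative to Day21 (edgeR adjusted p = 0.00275). Both calls held under every alternative tried. Relative to Day0, Day42 levels were higher by 1.10 ± 0.30 (edgeR adjusted p = 0.0458), and that call was lost without any 1 Day0 library or without Day42 replicate 1 or 3, with adjusted p up to 0.169.

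RAB3C, another RAB3 form, had 1.31, 1.83 and 1.08 FPKM at Day0, 1.49, 1.99 and 2.40 at Day21 and 9.95, 11.1 and 14.2 at Day42. Its Day42 libraries lay above the rest, at a log2 fold change of 1.91 ± 0.39 relative to Day21 (edgeR adjusted p = 0.0224), a call lost without any 1 Day21 library, with adjusted p up to 0.089. RAB3A, the main RAB3 form of brain synapses, had 0.503, 1.21 and 2.20 FPKM at Day0, 5.43, 2.42 and 2.75 at Day21 and 27.8, 20.4 and 9.28 at Day42. No 2 days overlapped, but neither step reached the threshold (edgeR adjusted p = 0.0714 on Day21 relative to Day0 and 0.109 on Day42 relative to Day21). The late rise was called with DESeq2, both limma fits on FPKM and voom. The early rise was called with DESeq2, with voom and without Day0 replicate 3. RAB3A was called over the whole course, at 3.21 ± 0.83 on Day42 relative to Day0 (edgeR adjusted p = 0.0373). That call was lost without any 1 Day0 library or without Day42 replicate 1 or 2, with adjusted p up to 0.147. Mean levels of RAB3A, RAB3B and RAB3C on Day42 were 19.2, 17.0 and 11.7 FPKM, and their libraries overlapped. RPH3A, the RAB3 effector rabphilin, had 4 counts in 1 Day42 library and none in the other two.

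Among the 9 priming and active zone genes tested, CADPS, PCLO, PPFIA2 and RIMS2 rose on Day42 relative to Day21, beside 4.9% of all genes. PPFIA2 and UNC13A fell on Day21 relative to Day0, beside 12.0% of all genes. CADPS, a priming factor for dense-core vesicles, had 4.01, 2.93 and 11.2 FPKM on Day42, against 0.146, 0.0785 and 0.0961 on Day21. PCLO, the scaffold piccolo, had 2.24, 2.33 and 3.26 FPKM on Day42, against 0.125, 0.0582 and 0.0877 on Day21. PPFIA2, a liprin scaffold, had 4.52, 4.77 and 3.18 FPKM on Day42, against 0.0919, 0.0636 and 0.111 on Day21. In all of these genes every Day42 library lay above every Day21 library. The log2 fold changes on Day42 relative to Day21 were 5.19 ± 0.75 for CADPS (edgeR adjusted p = 0.0162), 4.23 ± 0.54 for PCLO (edgeR adjusted p = 0.011) and 4.86 ± 0.64 for PPFIA2 (edgeR adjusted p = 0.0122). PPFIA2 had fallen by 2.01 on the log2 scale (SE 0.39) on Day21 relative to Day0, where it was at 0.356, 0.396 and 0.276 FPKM (edgeR adjusted p = 0.00803). RIMS2 had 4.58, 1.32 and 2.27 FPKM on Day42, against 0.374, 0.307 and 0.231 on Day21, with a log2 fold change of 2.53 ± 0.68 (edgeR adjusted p = 0.0464). The late calls of CADPS, PPFIA2 and RIMS2 were lost without any 1 Day21 library and that of PCLO without Day21 replicate 2 or 3, with adjusted p up to 0.181 for RIMS2 and 0.089 for the others. The RIMS2 call was also lost without Day42 replicate 1.

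UNC13A, the main priming factor of glutamate synapses (Munc13-1), had 282, 399 and 250 counts at Day0, 69, 58 and 65 at Day21 and 2004, 1263 and 0 at Day42. It fell by 2.44 on the log2 scale (SE 0.36) on Day21 relative to Day0 (edgeR adjusted p = 0.00236). The Day42 libraries split into 2 above and 1 below all Day21 libraries, and the second step missed the threshold (edgeR adjusted p = 0.348). BSN, RIMS1 and ERC2 had the same split. Their Day42 levels were 0.655, 1.24 and 0 FPKM for BSN, 0.676, 0.806 and 0 FPKM for RIMS1 and 0.877, 0.811 and 0 FPKM for ERC2. CADPS2 was above 1 FPKM in Day42 replicate 2 alone. UNC13C had 4 counts in 1 of the 9 libraries.

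The promoters of 4 genes are shown because their genes differ in course and because the sites of REST, a repressor of neuronal genes outside neurons, are a textbook element of this gene class. REST binds the RE1 sequence, whose left and right parts were searched as TTCAGCACC and GGACAG on both strands of RefSeq promoter windows (GRCh38.p14, 300 bases, 250 before and 50 after the start). Windows were found for 35 of the 43 genes, 53 windows in all, and none for SYN3, SYNGR3, SYT7, SNAP25, SYT13, CPLX1, CADPS2 or RIMS2. TTCAGCACC lay in 2 of the 53 windows, those of SYN1 and UNC13A, and in 0.376% of all 35116 windows. GGACAG lay in 12 of the 53 and in 20.5% of all. Both parts in this order with at most 12 bases between them occurred in 15 windows of all (0.0427%), among them SYN1, with 2 bases between them on the gene's strand, and UNC13A, with 8 bases on the opposite strand. Below, each sequence is given 5′ to 3′ on the gene's strand, which is the minus strand in all 4, with the RE1 parts in capitals. The printed sequences are parts of the windows, 270 bases for UNC13A and 250 for SYN1, STX1A and RAB3B.
UNC13A, chr19:17688335-17688604, fallen on Day21 and split on Day42: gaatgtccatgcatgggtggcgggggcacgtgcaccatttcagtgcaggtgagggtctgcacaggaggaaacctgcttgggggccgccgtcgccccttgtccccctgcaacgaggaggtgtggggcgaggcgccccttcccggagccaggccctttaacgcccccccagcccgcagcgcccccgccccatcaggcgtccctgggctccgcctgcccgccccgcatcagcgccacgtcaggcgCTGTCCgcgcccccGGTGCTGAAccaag
SYN1, chrX:47619858-47620107, highest on Day42 but not called: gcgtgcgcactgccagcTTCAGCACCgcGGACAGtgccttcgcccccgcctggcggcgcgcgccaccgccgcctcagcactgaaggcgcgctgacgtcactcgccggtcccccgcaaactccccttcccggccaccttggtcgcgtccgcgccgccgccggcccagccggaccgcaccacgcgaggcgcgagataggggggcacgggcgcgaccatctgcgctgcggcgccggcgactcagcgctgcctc
STX1A, chr7:73719670-73719919, risen on Day42: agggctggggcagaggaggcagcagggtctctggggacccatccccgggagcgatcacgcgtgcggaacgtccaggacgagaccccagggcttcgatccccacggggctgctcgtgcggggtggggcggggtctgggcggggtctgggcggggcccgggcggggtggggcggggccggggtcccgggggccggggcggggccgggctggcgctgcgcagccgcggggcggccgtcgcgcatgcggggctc
RAB3B, chr1:51990701-51990950, fallen on Day21 and risen on Day42: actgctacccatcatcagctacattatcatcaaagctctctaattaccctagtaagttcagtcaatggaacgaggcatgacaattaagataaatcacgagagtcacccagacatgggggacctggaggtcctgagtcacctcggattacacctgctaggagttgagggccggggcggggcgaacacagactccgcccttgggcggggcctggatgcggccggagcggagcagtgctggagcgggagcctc
In UNC13A the pair spans the start site, and the left part reads GGTGCTGAA here because it lies on the other strand. In SYN1 the pair begins at position -233 relative to the start. STX1A and RAB3B do not hold the pair in these windows. The printed sequences differ in base composition, with 80.8% G and C in STX1A, 76.8% in SYN1, 71.9% in UNC13A and 56.8% in RAB3B. A match describes the letters and does not show binding, and no match says only that these letters are not in the window.

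Of the genes for vesicle recovery, SNAP91, the clathrin adaptor AP180 of neurons, had 0.117, 0.0516 and 0.185 FPKM at Day0, 0.180, 0.104 and 0.132 at Day21 and 9.22, 7.88 and 13.0 at Day42. Day0 and Day21 overlapped and Day42 lay far above both. SNAP91 rose by 5.54 ± 0.54 on Day42 relative to Day21 (edgeR adjusted p = 0.00516), a call lost without Day21 replicate 2 or 3, with adjusted p up to 0.0563. SYNJ1, the phosphatase that uncoats endocytosed vesicles, had 2.49, 1.83 and 0.929 FPKM on Day42, against 0.0854, 0.0649 and 0.0936 on Day21. It rose by 3.73 ± 0.81 (edgeR adjusted p = 0.0248), and the call was lost without any 1 Day21 library, with adjusted p up to 0.139. AMPH, amphiphysin 1, had 0.834, 0.583 and 0.695 FPKM on Day21, against 0.232, 0.128 and 0.291 on Day0. It rose by 1.64 ± 0.38 (edgeR adjusted p = 0.0148). On Day42 AMPH stood at 0.718, 2.30 and 0 FPKM. DNM1, the neuronal dynamin, had 1.68, 1.15 and 0 FPKM on Day42, against 0.508, 0.420 and 0.256 on Day21. EdgeR called it in no comparison with all libraries. Voom and the fit without Day0 replicate 3 called it on Day21 relative to Day0. BIN1, a widely expressed relative of AMPH, had 4.47, 2.73 and 5.18 FPKM on Day42, against 3.14, 2.50 and 1.75 on Day21. Those ranges overlapped, and edgeR called BIN1 in no comparison with all libraries. Voom and the fit without Day0 replicate 3 called BIN1 on Day21 relative to Day0. Both limma fits on FPKM called it on Day42 relative to Day0.

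Set side by side, the steps show 7 courses among the 39 tested genes. SNAP25, VAMP2, SYT1 and SYT11 were called higher in both steps, a course that 0.883% of all genes tested took. Another 10 genes were called higher in the second step alone (CADPS, NAPB, PCLO, RAB3C, RIMS2, SNAP91, STX1A, SV2A, SYNJ1 and SYT5), a course of 3.28% of all genes. RAB3B, PPFIA2 and SYNGR3 were called lower on Day21 and higher on Day42, beside 0.739% of all genes. AMPH, CPLX2 and SYT4 were called higher on Day21 alone, beside 9.38% of all genes, and SYN3, SYT2, SYT13 and UNC13A lower on Day21 alone, beside 9.62%. SYNGR1 was called lower on Day42 alone, beside 12.2% of all genes, and 14 genes were called in neither step, beside 59.5%.

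A call in one step alone does not show that the steps differed. That difference was tested as the second change minus the first, in 1 fit over all 9 libraries, in which both steps share the Day21 libraries. That fit pools days of unlike spread, which limits its p-values. Of the 39 tested genes, 8 had a higher second change and 1 a lower one, beside 2.25% and 12.9% of all genes tested. RAB3B led with a difference of 7.94 ± 0.57 on the log2 scale (edgeR adjusted p = 0.00053), followed by PPFIA2 at 6.88 ± 1.04 (edgeR adjusted p = 0.00658). Both held whichever library was left out. SNAP91, PCLO, CADPS, SV2A and NAPB had differences between 2.74 and 5.38 (edgeR adjusted p between 0.0116 and 0.0472). SNAP25 rose more in the second step by 1.71 ± 0.39 (edgeR adjusted p = 0.0199). SYNGR1 had a difference of -2.41 ± 0.60 (edgeR adjusted p = 0.0292). The calls of these 7 genes were lost without at least 1 Day21 library, with adjusted p up to 0.176. Without Day42 replicate 2, 10 genes had a higher second change, beside 3.01% of all genes, and 5 a lower one, beside 20.1%, with CPLX1, SYN2, SYT2 and SYT7 added to SYNGR1. For VAMP2 the difference was 0.25 ± 0.38 (edgeR adjusted p = 0.806), for SYT11 it was -0.22 ± 0.55 (edgeR adjusted p = 0.898) and for SYT1 1.46 ± 0.73 (edgeR adjusted p = 0.253). STX1A, called in the second step alone, had a difference of 3.18 ± 0.92, just short of a call (edgeR adjusted p = 0.0522). A p above the threshold does not show that the steps were equal.

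**Figure D3:**
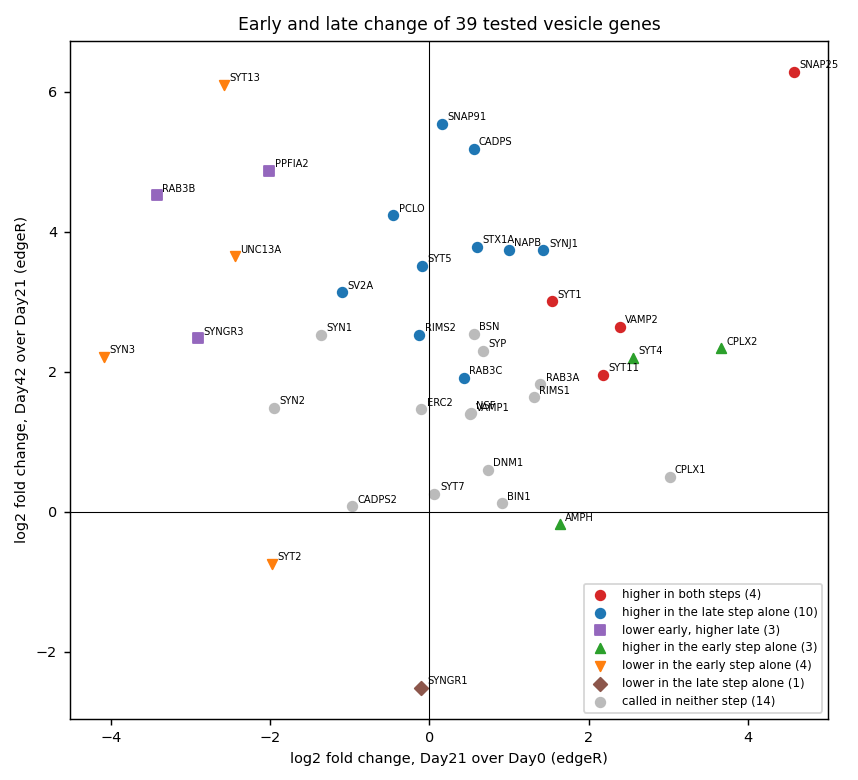
Log2 fold change of each of the 39 tested genes on Day21 relative to Day0 (horizontal axis) and on Day42 relative to Day21 (vertical axis) from edgeR, with colours and shapes for the calls in the steps. SNAP25 lies at 4.57 and 6.29, RAB3B at -3.42 and 4.52, and SYNGR1 is the one gene called lower in the second step with all libraries.

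Many calls that were not made with all libraries were made without Day42 replicate 3. This library held 17 of the 43 genes at 0, against 9 in replicate 1 and 4 in replicate 2. In all, 10 of the genes had counts in both of the other Day42 libraries and none in this one, namely AMPH, BSN, CPLX2, DNM1, ERC2, RIMS1, SYN3, SYT4, SYT13 and UNC13A. Other genes showed such zeros as well. Of 7436 tested genes with at least 500 counts in both other Day42 libraries, 1378 (18.5%) were at 0 in replicate 3, and of the 29 vesicle genes above that limit 7 (24.1%) were. Without replicate 3, 27 vesicle genes were called higher on Day42 relative to Day21, beside 11.1% of all genes, and 1 lower, beside 22.5%. All 17 genes called with it were among them, and BSN, CPLX2, NSF, RAB3A, RIMS1, SYN1, SYP, SYT13, SYT4 and UNC13A were added. In the same setting, 23 were called higher on Day42 relative to Day0, beside 11.7% of all genes, of which 15 were called with replicate 3 and RAB3B was not called. Without it, 15 genes had a higher second than first change, beside 6.58% of all genes, with STX1A, SYN1, SYN3, SYNGR3, SYT5, SYT13 and UNC13A added.

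**Figure D4:**
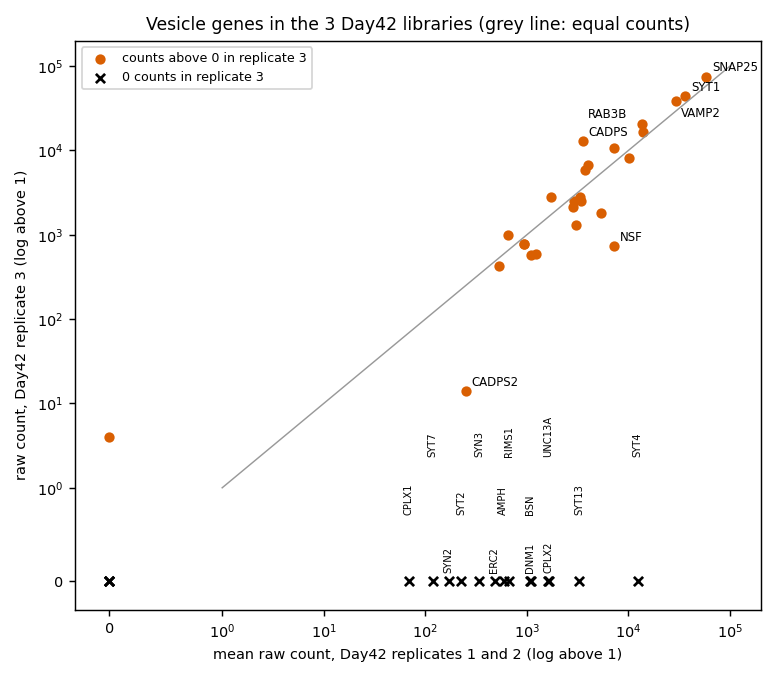
Raw count of each vesicle gene in Day42 replicate 3 (vertical axis) against the mean raw count of Day42 replicates 1 and 2 (horizontal axis), both logarithmic above 1, with crosses for genes at 0 in replicate 3 and a grey line for equal counts. SYT4 lies farthest right among the genes at 0 in replicate 3, while SNAP25, VAMP2 and SYT1 lie near the line.

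Several vesicle genes have a widely expressed relative, and 6 such pairs, chosen after their values were seen, were set side by side on the FPKM scale. SNAP23 is the SNAP25 form of most other cells. The ratio of SNAP25 to SNAP23 was 0.0242 to 0.0472 on Day0, 0.687 to 0.895 on Day21 and 168 and 218 in Day42 replicates 1 and 2, while replicate 3 listed SNAP23 at 0. SNAP25 was thus the lower of the pair in all libraries before Day42 and the higher afterwards. VAMP3 is the corresponding relative of VAMP2. The VAMP2 to VAMP3 ratio was 0.582 to 0.773 at Day0, 2.42 to 4.34 at Day21 and 3220, 50.5 and 2710 at Day42. The wide range on Day42 came from VAMP3, at 0.0394, 2.56 and 0.056 FPKM. The NAPB to NAPA ratio was 0.0602 to 0.101 at Day0, 0.0856 to 0.113 at Day21 and 0.734, 1.84 and 0.627 at Day42. NAPB thus stayed below NAPA in 2 of the 3 Day42 libraries. The ratios of SYP to SYPL1, DNM1 to DNM2 and SYNGR1 to SYNGR2 were below 1 in every Day0 and Day21 library. On Day42 DNM1 exceeded DNM2 in replicates 1 and 2, at ratios of 3.15 and 1.31, but was at 0 in replicate 3. SYP stayed below SYPL1 in replicates 1 and 2, at 0.259 and 0.833, while replicate 3 listed SYPL1 at 0. SYNGR1 stayed below SYNGR2, at 0.592, 0.305 and 0.2.

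**Figure D5:**
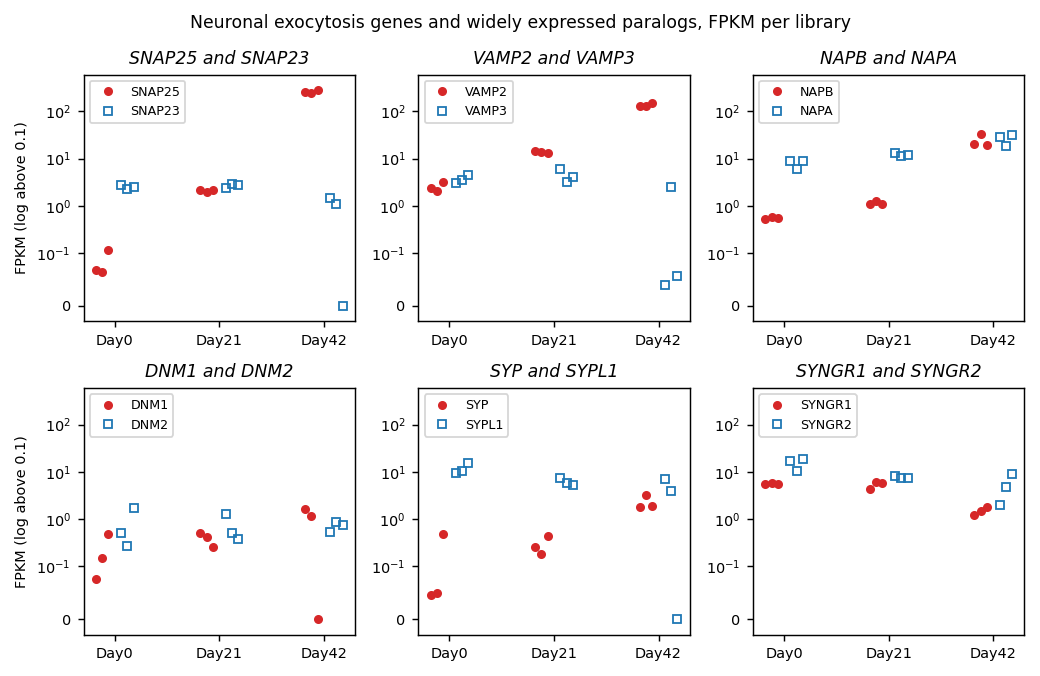
FPKM of 6 vesicle genes (filled circles) and of a widely expressed relative of each (open squares) in every library from Day0 to Day42, on an axis that is logarithmic above 0.1 FPKM and reaches 0. SNAP25 and VAMP2 lie far above SNAP23 and VAMP3 on Day42, and NAPB lies near NAPA.

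Other genes of the same pathway are given by list, with the list counts beside 4.9% higher and 16.6% lower among all genes tested on Day42 relative to Day21 and 12.9% higher and 12.0% lower on Day21 relative to Day0. The lists were set by function, and the genes named from them are mostly those with the largest called changes. Among the SNARE partners, SNCB, beta-synuclein, was called higher on Day42 relative to Day21. It had 4.08, 6.03 and 7.33 FPKM on Day42, against 0.182, 0.224 and 0.106 on Day21. SNCB had been called lower on Day21 relative to Day0, where it had 1.34, 0.617 and 2.72 FPKM (log2 fold change -3.16 ± 0.60, edgeR adjusted p = 0.00743). Of 13 other vesicle membrane proteins and RAB3 partners, 3 were higher and 2 lower on Day21 relative to Day0. On Day42 relative to Day21, 5 were higher and none lower, led by SVOP and by ATP6V1B2, a subunit of the proton pump that energises vesicle filling. ATP6V1B2 had 145, 96.5 and 124 FPKM on Day42, against 11.6, 10.4 and 14.7 on Day21 (log2 fold change 2.67 ± 0.26, edgeR adjusted p = 0.00516, held without any 1 library).

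Of 13 other active zone genes, LIN7B and ERC1 were higher on Day42 relative to Day21 and RIMS4 lower, with no counts for RIMS4 on Day42, and LIN7A was lower on Day21 relative to Day0. LIN7B had 93.0, 47.7 and 73.6 FPKM on Day42, against 4.72, 8.20 and 7.03 on Day21. Of 21 other endocytosis genes, 4 were higher and 1 lower in that step, and 1 was higher and 5 were lower on Day21 relative to Day0. SH3GL3, an endophilin, had 29.2, 39.5 and 29.9 FPKM on Day42, against 0.766, 0.824 and 0.626 on Day21 (log2 fold change 4.80 ± 0.38, edgeR adjusted p = 0.00334, held without any 1 library). SH3GL3 was among the 5 lower on Day21 relative to Day0, where it had 2.67, 4.28 and 3.72 FPKM (log2 fold change -2.30 ± 0.28, edgeR adjusted p = 0.00114). AP2S1, a subunit of the clathrin adaptor AP2, was lower, at 39.5, 41.8 and 52.0 FPKM on Day42, against 187, 175 and 149 on Day21 (log2 fold change -2.58 ± 0.22, edgeR adjusted p = 0.00402, held without any 1 library). The late calls of SNCB, SVOP, LIN7B, ERC1 and RIMS4 were lost without at least 1 Day21 library, with adjusted p up to 0.13.

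Of the 24 widely expressed exocytosis genes, 1 was higher and 6 were lower on Day21 relative to Day0, beside 12.9% and 12.0% of all genes. VAMP8, a SNARE of non-neuronal secretion, was at 3.39, 4.76 and 4.09 FPKM on Day21, against 90.9, 118 and 67.0 on Day0. It fell by 4.54 on the log2 scale (SE 0.36, edgeR adjusted p = 0.000198, held without any 1 library). On Day42 VAMP8 was at 0.0642, 0 and 0.0536 FPKM. UNC13D, STXBP2 and STX3 were also lower on Day21 relative to Day0, and the STX3 call was lost without Day21 replicate 2 (adjusted p = 0.0552). On Day42 relative to Day21, 2 of the 24 were higher and VAMP8 was lower, a call lost without any 1 Day21 library or Day42 replicate 1, with adjusted p up to 0.111. None of the 9 other synaptotagmins tested was called by edgeR in either step. In each step 2 of them had an unadjusted p under 0.05 and DESeq2 called 2. Voom called 1 in the first step and 2 in the second. Limma tested 3 of the 9, and called SYT17 in the second step with either pseudocount and in the first with log2(FPKM + 0.1) alone.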

How the data were processed

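The 9 libraries were made, per the labels' protocols, from Trizol-extracted total RNA with a low-input NEBNext kit. Cutadapt 1.9, FastQC and the build GRCh38 stand in the submitters' processing notes, while aligner, counter, strand setting and annotation are not given here. The authors deposited raw counts, whole numbers per gene, and FPKM of their own, per the file headers. The counts pile up at multiples of 4 (7999 values of 4, against 3658 of 3 and 3700 of 5), so the limit for a count of 0 was set at 3 such steps, 12 counts. Total counts were 58526466 to 69658328, and precision of low values is limited accordingly.

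Genes were kept by filterByExpr and scaled by TMM over all 9 libraries. Each pair of days was fitted alone with edgeR 4.0.16 in R 4.3.3, because the spread between libraries differed between days (coefficient of variation 0.554, 0.42 and 1.86 on Day0, Day21 and Day42). The difference between steps used all 9 libraries. Every fit that included Day42 still pooled these unlike spreads, so the p-values of the Day42 comparisons and of the difference between steps are less certain. P-values were adjusted by Benjamini-Hochberg over 20156 genes. The tests were tried on simulated data. Alternatives were 1 fit over all libraries, median-of-ratios scaling, DESeq2 1.42.0, limma 3.58.1 (voom, or log2(FPKM + 1) and log2(FPKM + 0.1)), other filters, a replicate block and leaving out each library. The members, the other gene lists and the tests were chosen with earlier results of these data known. All 43 members could be named, and of the other lists up to 4 called genes per comparison and direction with the largest change, or the 2 with the highest FPKM where none was called. Genes overlapping another on the same strand were AMPH, CADPS, CADPS2, ERC2, NAPB, PPFIA2, RAB3C, RIMS2, SV2C, SYN1, SYN2, SYN3, SYNGR1, SYT1, SYT7 and VAMP2. CPLX3, CPLX4, SYT8, INS and GCG were not analysed here. Some genes of the other lists are not reported here. Promoters came from RefSeq. Tables were handled in pandas 2.3.3 and numpy 2.4.6 under Python 3.11.15, and figures drawn in matplotlib 3.10.9.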

Additional observations from a re-analysis of the deposited data

How the results depend on the processing

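With the Day42 libraries added to 1 fit over all 9, 504 genes were called on Day21 relative to Day0, against 5034 in the fit of 2 days, and 4 vesicle genes, against 14. With the filter on FPKM instead of counts the same numbers were 2934 and 9, and with limma on log2(FPKM + 0.1) 2922 and 7. With limma on log2(FPKM + 1) they were 1950 and 6, and with voom and quality weights 6715 and 22. The filter on FPKM and both limma fits on FPKM tested only 10619 genes and 23 vesicle genes. The fit with no count filter tested 34961 and 43, and the other fits 20156 and 39. Counts of calls from these settings therefore stand on different numbers of tested genes. On Day42 relative to Day0, 4638 genes were called, against 7043 with DESeq2, 2903 with the FPKM filter and 2139 with no count filter. On Day42 relative to Day21 the 4329 calls became 2503 with the FPKM filter and 2699 with no count filter. The 3060 calls for the difference between steps became 5019 with DESeq2, 1599 with the FPKM filter and 5776 with voom. They became 2575 with limma on log2(FPKM + 1) and 2103 with no count filter. The 9 vesicle genes became 16 with DESeq2, 14 with limma on log2(FPKM + 1), 4 with no count filter and 19 with voom. The cause of these shifts was not tested. Leaving out 1 library gave 3718 to 5622 genes and 11 to 18 vesicle genes on Day21 relative to Day0, 232 to 6778 and 4 to 28 on Day42 relative to Day21, 428 to 6931 and 5 to 24 on Day42 relative to Day0, and 1550 to 5242 and 2 to 16 for the difference between steps. Deviations from the day means correlated between -0.225 and 0.0266 for same-numbered libraries and between -0.182 and 0.301 for different-numbered ones. These are deviations from means of only 3 libraries per day, so this check cannot exclude a pairing by replicate number. With a replicate block, the calls were 3139 on Day21 relative to Day0, 255 and 5 vesicle genes on Day42 relative to Day21, 413 and 5 on Day42 relative to Day0, and 255 and 1 for the difference between steps. UNC13A on Day42 relative to Day0, not called with all 9 libraries, had a log2 fold change of -0.0867 under the block, with the sign reversed. Among single-gene values under the alternatives, 1666 kept direction and side of the threshold, 402 lost the call, 73 gained it and 1 reversed. Another 1012 values, uncalled both ways, are not in these counts, and 76 of them had the other sign. DESeq2 gave no adjusted p for up to 1877 genes. Low counts limit SV2B, SV2C, RPH3A and UNC13C, where differences were not detectable at this depth. CPLX1 was called on Day21 relative to Day0 with voom and without Day0 replicate 3, and CPLX1 and SYT7 on Day42 relative to Day21 without Day42 replicate 2.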
